A study of Homo sapiens with 6 samples.

Results

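The annexins are a family of calcium-dependent membrane-binding proteins, and 10 annexin genes (ANXA1, ANXA2, ANXA3, ANXA4, ANXA5, ANXA6, ANXA7, ANXA9, ANXA11 and ANXA13) were followed by symbol among the 61487 gene IDs of a count table. The table compared azacitidine-resistant with azacitidine-sensitive cells of K562, an established human chronic myeloid leukaemia line. Of the 10 genes, 9 carried enough counts to be tested, among 20891 tested genes in all, and ANXA13 had 0 counts in all 6 libraries. The resistant group consisted of 3 libraries from K562 cells kept under rising azacitidine, a cytidine analogue that traps DNA methyltransferases, over months. The sensitive group consisted of 3 libraries from K562 cells without that history. Both were grown in serum-supplemented RPMI, neither label lists a treatment at harvest, and whether the resistant cells were 1 clone or a pool is not given in the sources used here. The libraries of each group are labelled as biological replicates without saying that they came from separate cultures, so the p-values measure only the spread between these libraries. RNA was sequenced from DNase-treated total RNA after ribosomal RNA removal.

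Each annexin has a conserved core of repeated domains that docks on negatively charged phospholipids when calcium is present, and an amino-terminal tail that differs between members and sets their partners. Annexins organise membranes during vesicle traffic, exocytosis and the repair of torn plasma membrane. In blood cells ANXA1 is best known as a glucocorticoid-induced protein that dampens inflammation, and ANXA5 as the protein used to stain exposed phosphatidylserine on dying cells.

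Total counts per library ran from 33007642 to 37991708 in the resistant and from 34924828 to 43006918 in the sensitive group. On the first principal component, with 66.3% of the variance, the groups separated, and on the second, with 18.0%, the libraries numbered 3 of both groups stood apart from the other 4. Small nucleolar RNA took between 0.114% and 0.227% of the counts in the resistant libraries and between 0.404% and 0.695% in the sensitive libraries. Mitochondrial ribosomal RNA took 17.8%, 16.8% and 8.54% in resistant and 14.0%, 16.2% and 12.8% in sensitive libraries. Its share was lowest in the library numbered 3 of each group. Of 13 listed K562 markers 12 were tested. At an edgeR adjusted p below 0.05, 2 were higher in resistant cells, 1 was lower and 9 were not called. Their median log2 fold change was 0.21, and 9.83% of all tested genes were higher and 13.1% lower. BCR and ABL1 were higher and LMO2 lower. The LMO2 call ended when resistant replicate 2 was left out. The BCR call ended when any library numbered 1 or 2 was, in either group. The ABL1 call ended when any library except resistant replicate 3 was left out. In CPM (counts scaled to a common library size with TMM factors), the erythroid regulator GATA1 averaged 84.1 in resistant and 114 in sensitive cells. The embryonic globin HBE1 was not tested, with 10, 10 and 4 counts in resistant and 0, 0 and 2 counts in sensitive libraries. The labels also call the cells myeloblasts, and the 8 listed myeloblast markers were mixed. The granule genes MPO, ELANE and CTSG and the progenitor marker CD34 had at most 4 counts in any library, AZU1 was at a mean of 2.40 CPM in resistant and 3.88 CPM in sensitive cells, and KIT and CD33 were abundant in sensitive cells.

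More annexins fell than rose in the resistant cells. At a Benjamini-Hochberg adjusted p below 0.05 from edgeR's quasi-likelihood test over all tested genes, ANXA1, ANXA3 and ANXA11 fell, 0 members rose and 6 did not pass. Of all tested genes 23.0% passed in either direction, 13.1% as lower and 9.83% as higher. At least 2-fold lower were 2 of the 9, ANXA1 and ANXA3, against 8.97% of all genes. The median log2 fold change of the 9 was -0.58, against 0.03 over all tested genes. The log2 fold change was negative in 7 of the 9 annexins and in 48.4% of all genes. The resistant and sensitive libraries did not overlap in 7 of the 9, against 40.1% of all genes. ANXA4 was the member of those 7 that was higher in the resistant libraries, and the other 6 were lower.

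ANXA1 (ENSG00000135046, chr9:73151757-73170393, plus strand), which inhibits phospholipase A2 and signals through formyl peptide receptors, showed the largest fold change of the 9 tested members. Its level was 18.8, 18.9 and 19.9 CPM in the resistant libraries and 398, 309 and 761 CPM in the sensitive libraries. The resistant libraries lay close together and far under the lowest sensitive library, while sensitive replicate 3 stood well above the other sensitive libraries. The means were 19.2 ± 0.632 CPM in resistant and 490 ± 239 CPM in sensitive cells (SD, n = 3 each). This was a log2 fold change of -4.67 ± 0.34 (SE), or 25.5-fold lower in resistant cells, with an adjusted p of 1.33e-05 in edgeR's quasi-likelihood test. In bulk RNA, fewer cells with the transcript and less transcript per cell cannot be told apart. The T cell marker CD3D, 1 of 15 listed markers of other cell types, showed a like spread. It was at 1.91, 2.36 and 1.57 CPM in resistant and 28.2, 18.5 and 95.2 CPM in sensitive libraries. Without sensitive replicate 3 the log2 fold change was -4.21 for ANXA1 and -3.59 for CD3D, in place of -4.60 for CD3D with all libraries. CD3E, the other listed CD3 chain, had a log2 fold change of -4.45 with all libraries and -5.31 without resistant replicate 3. Of the 11 tested markers of other cell types, 3 were called lower and 2 higher. COL1A2, from the same list, went the other way, with a log2 fold change of 4.11 with all libraries. The part of CD3D-expressing cells in the ANXA1 difference was not tested.

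ANXA3 (ENSG00000138772, chr4:78551519-78610451, plus strand), an annexin abundant in neutrophils, had the smallest p of the family and stood at place 51 of all tested genes ordered by p, where ANXA1 stood at place 165. It measured 6.34, 6.51 and 8.13 CPM in the resistant libraries and 64.0, 71.7 and 58.7 CPM in the sensitive libraries. Every resistant library was far below every sensitive one, and sensitive replicate 3 was here the lowest of its group, where it was the highest for the other 8 tested members. The difference was a log2 fold change of -3.21 ± 0.18 (SE), or 9.26-fold lower in resistant cells, with an adjusted p of 2.52e-06 by edgeR's quasi-likelihood test.

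The stretches of 250 bases before the transcription start of ANXA1 and ANXA3, the called members with the largest fold changes, and ANXA4, the member higher in every resistant library, are shown because azacitidine lowers the methylation of cytosines in CG pairs, and the members differ widely in how many CG pairs they hold there. They are the RefSeq sequences on GRCh38.p14, written 5′ to 3′ on the plus strand, for ANXA1 at chr9:73151615-73151864, ANXA3 at chr4:78551520-78551769 and the upstream of 2 starts of ANXA4 at chr2:69643558-69643807. The RefSeq starts differ from the GENCODE 29 gene positions given here. By those positions the ANXA3 stretch lies inside its gene and the ANXA1 stretch lies partly inside. The CG counts and motif distances hold for the RefSeq starts. Capitals mark CG pairs and the motifs TATAAA and CCAAT on either strand.
ANXA1: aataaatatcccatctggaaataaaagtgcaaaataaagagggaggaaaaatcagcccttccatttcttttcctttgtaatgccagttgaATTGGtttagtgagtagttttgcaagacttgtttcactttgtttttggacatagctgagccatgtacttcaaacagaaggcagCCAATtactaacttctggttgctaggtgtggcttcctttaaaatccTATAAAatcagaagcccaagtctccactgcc
ANXA3: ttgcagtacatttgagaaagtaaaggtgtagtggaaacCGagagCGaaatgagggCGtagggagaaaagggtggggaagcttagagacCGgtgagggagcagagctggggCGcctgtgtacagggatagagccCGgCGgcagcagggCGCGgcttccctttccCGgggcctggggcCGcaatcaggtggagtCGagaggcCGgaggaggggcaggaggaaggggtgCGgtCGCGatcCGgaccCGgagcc
ANXA4: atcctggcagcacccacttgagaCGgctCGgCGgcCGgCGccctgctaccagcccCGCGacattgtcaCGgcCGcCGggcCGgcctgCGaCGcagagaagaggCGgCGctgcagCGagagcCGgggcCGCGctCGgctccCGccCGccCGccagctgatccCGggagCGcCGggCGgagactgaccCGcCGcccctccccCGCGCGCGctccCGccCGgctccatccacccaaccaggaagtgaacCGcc

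The ANXA1 stretch holds 0 CG pairs, as do 6.06% of all 35116 RefSeq promoter entries, and is 38.4% G or C. It holds TATAAA beginning 31 bases before the start, and CCAAT beginning 160 bases before it (as ATTGG, on the minus strand) and 77 bases before it. The ANXA3 stretch holds 18 CG pairs against a median of 11 over all entries, and 34.6% of entries hold more. The ANXA4 stretch holds 36 CG pairs, more than 95.1% of entries. The 2 called members at least 2-fold lower thus differ in this feature, one having no CG pair and the other more than the median entry.

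In all, 9 members matched 13 RefSeq promoters, whose CG counts ran from 0 in ANXA1 to 36 in ANXA4. ANXA2, ANXA5 and ANXA7 hold 28, 31 and 20 CG pairs, and ANXA9 holds 4. The other ANXA4 promoter holds 21, those of ANXA6 hold 19 and 10, and those of ANXA11 hold 9, 22 and 5. Searched on both strands, TATAAA was also in the ANXA2 promoter, 31 bases before its start, and in 1 ANXA11 promoter, against 10.7% of all entries. CCAAT, in 32.0% of all entries, was also found for ANXA6, ANXA7 and ANXA11. The motif GGGCGG, in 42.6% of all entries, and AGATAA, in 9.17%, were not in the ANXA1 or ANXA3 stretches, which says only that these letters are not in this window.

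**Figure D1:**
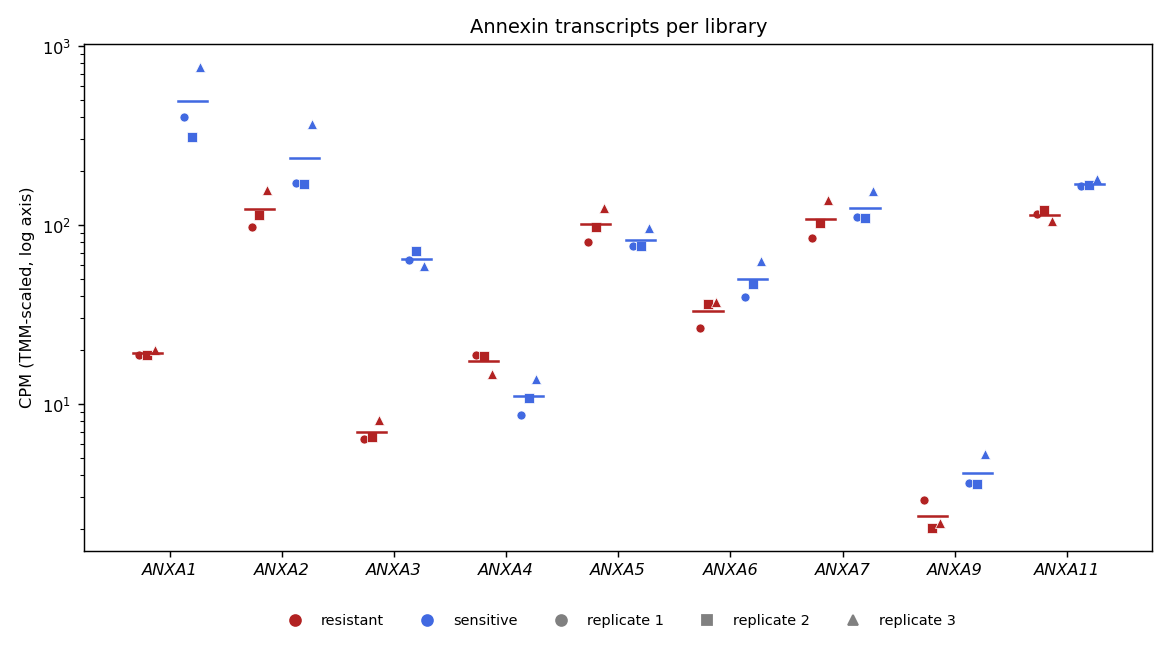
TMM-scaled CPM (log axis) of the 9 tested annexin genes in each library, with resistant libraries (red) to the left of sensitive ones (blue) for each gene; symbol shapes mark replicates and lines the group means. The points of ANXA1 and ANXA3 lie far apart between the groups (ANXA1 18.8 to 19.9 CPM in resistant and 309 to 761 CPM in sensitive libraries), while those of ANXA5 and ANXA7 overlap.

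ANXA2 (ENSG00000182718, chr15:60347134-60402883, minus strand), which pairs with S100A10 at the cell surface and takes part in plasminogen activation there, was at 97.4, 114 and 156 CPM in resistant and 172, 169 and 364 CPM in sensitive libraries. The groups did not overlap, but the highest resistant library came close to the lower sensitive ones and sensitive replicate 3 was again the highest. The log2 fold change of -0.94 ± 0.31 (SE) missed the threshold, with an adjusted p of 0.0534 by edgeR's quasi-likelihood test. Its processed pseudogene ANXA2P2 shares most of its sequence, so reads can be split between them. ANXA2P2 had 7, 17 and 29 counts in resistant and 26, 25 and 49 counts in sensitive libraries and was not called (edgeR log2 fold change -0.96 ± 0.56, adjusted p 0.254). ANXA8, ANXA8L1, ANXA10 and ANXA2P3 had 0 counts in every library, and ANXA2P1 had 1 count in the resistant and 7 in the sensitive libraries.

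ANXA11 (ENSG00000122359, chr10:80150889-80205572, minus strand), which tethers RNA granules to lysosomes and binds the calcium sensor PDCD6, fell by a small amount with small spread. Its values were 115, 121 and 105 CPM in the resistant libraries and 164, 166 and 180 CPM in the sensitive libraries. No resistant library reached the sensitive range, and the libraries of each group lay close together. The log2 fold change was -0.58 ± 0.15 (SE), or 1.5-fold lower, with an adjusted p of 0.0178 in edgeR's quasi-likelihood test. Its adjusted p was 0.0590 when sensitive replicate 1 was left out, 0.0576 when sensitive replicate 2 was and 0.0807 when resistant replicate 2 was, so each of these ended the call. Scaling by library totals alone did too (0.0555).

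ANXA7 (ENSG00000138279, chr10:73375101-73414076, minus strand), which like ANXA11 has a long amino-terminal tail and binds the calcium sensor sorcin, was at 84.4, 103 and 138 CPM in resistant and 111, 109 and 154 CPM in sensitive libraries. The groups overlapped, with a log2 fold change of -0.20 ± 0.22 (SE; edgeR adjusted p 0.544). ANXA6 (ENSG00000197043, chr5:151100712-151157882, minus strand), whose core is doubled and which works in endosome and cholesterol traffic, was at 26.6, 36.0 and 37.0 CPM in resistant and 39.7, 46.6 and 62.7 CPM in sensitive libraries. Its groups did not overlap, yet the log2 fold change of -0.58 ± 0.21 (SE) had an edgeR adjusted p of 0.0682. ANXA6 and ANXA11 thus had the same fold change on this scale with different spread.

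ANXA5 (ENSG00000164111, chr4:121667955-121697113, minus strand), the phosphatidylserine binder, was at 80.1, 96.8 and 125 CPM in resistant and 76.0, 75.8 and 96.3 CPM in sensitive libraries. These overlapped, and the log2 fold change of 0.28 ± 0.19 (SE) was not called (edgeR adjusted p 0.329). ANXA4 (ENSG00000196975, chr2:69644425-69827100, plus strand), a membrane-ordering annexin best known from epithelia, was at 18.8, 18.6 and 14.8 CPM in resistant and 8.63, 10.8 and 13.8 CPM in sensitive libraries. Every resistant library was above every sensitive one, but the lowest resistant and the highest sensitive library, both numbered 3, were close. Its log2 fold change of 0.65 ± 0.21 (SE) was 1.57-fold higher with an edgeR adjusted p of 0.0515. ANXA4 overlaps AAK1 on the opposite strand, and the strand setting of the counting is not given in the sources used here. AAK1 had a log2 fold change of -0.26 and was not called (edgeR adjusted p 0.640).

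ANXA9 (ENSG00000143412, chr1:150982017-150995634, plus strand), a member whose core lacks the usual calcium-binding residues, measured 2.91, 2.04 and 2.15 CPM in resistant and 3.62, 3.55 and 5.22 CPM in sensitive libraries. The groups did not overlap, and the log2 fold change of -0.80 ± 0.29 (SE) had an edgeR adjusted p of 0.0748. ANXA13 (ENSG00000104537, chr8:123680794-123737407, minus strand), an annexin of the gut epithelium, had 0 counts in all 6 libraries, where 3 counts would be between 0.0733 and 0.0902 CPM. For single members an exact two-sided permutation test of 3 against 3 libraries cannot go below 0.1. It gave 0.1 for each tested member except ANXA5 (0.2) and ANXA7 (0.4).

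**Figure D2:**
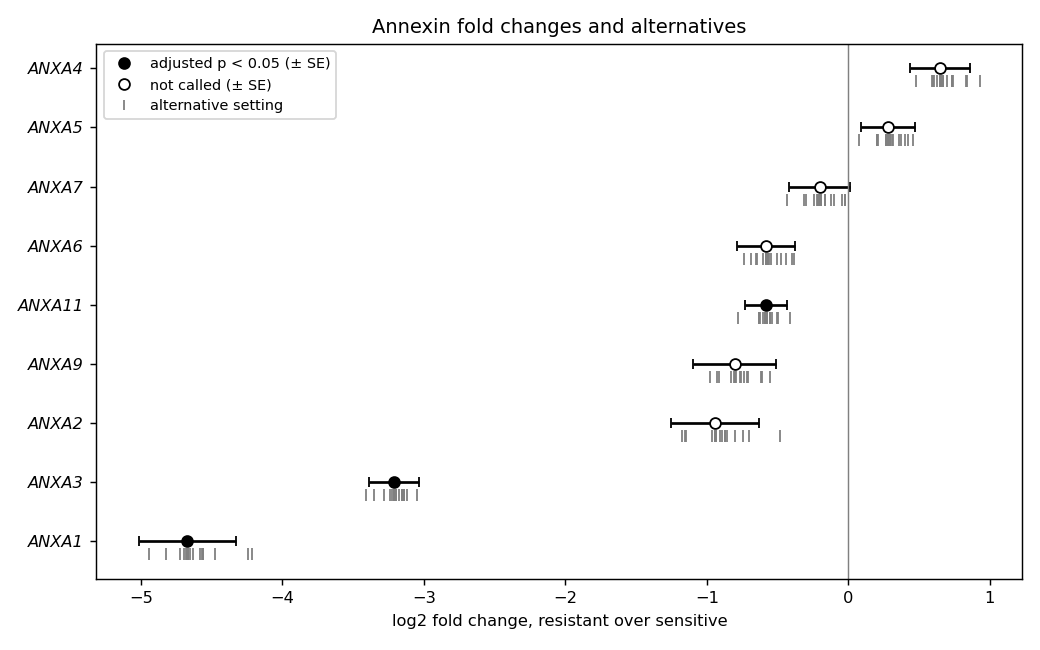
Log2 fold change of each tested annexin, resistant over sensitive, with bars of 1 SE; filled points passed an edgeR adjusted p below 0.05 and grey ticks give the value under each alternative setting. ANXA1 (-4.67) and ANXA3 (-3.21) lie far below 0, ANXA11 (-0.58) is the other filled point, and ANXA4 (0.65) and ANXA5 (0.28) lie above 0.

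Levels were compared between members after division by gene length (RPKM over the union of exons), and the leading annexin differed between the groups. In the resistant cells the order of mean levels was ANXA7 at 37.8 ± 9.43 and ANXA5 at 33.1 ± 7.41 RPKM, then ANXA2 at 13.9 ± 3.40 and ANXA11 at 13.3 ± 0.942 RPKM (SD, n = 3 each). ANXA6 followed at 6.11 ± 1.05 and ANXA1 at 4.20 ± 0.139 RPKM, and ANXA4, ANXA3 and ANXA9 had 1.57, 1.37 and 1.30 RPKM. The libraries of ANXA7 and ANXA5, of ANXA2 and ANXA11, and of neighbours among the last 3 overlapped, so these neighbours are not separated.

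In the sensitive cells ANXA1 led at 107 ± 52.5 RPKM, followed by ANXA7 at 43.5 ± 8.96 RPKM (SD, n = 3 each). ANXA5, ANXA2 and ANXA11 came next at 27.3, 26.7 and 20.0 RPKM with overlap between neighbours, then ANXA3 at 12.6 and ANXA6 at 9.16 RPKM, which also overlapped. ANXA9 at 2.26 and ANXA4 at 1.00 RPKM closed the order. ANXA1 thus held place 6 in resistant and place 1 in sensitive cells, and ANXA3 place 8 in resistant and place 6 in sensitive cells. With the longest protein-coding transcript as the length, ANXA2 led in resistant cells at 73.0 RPKM and came second to ANXA1 in sensitive cells, at 140 against 222 RPKM. On that length the libraries of ANXA2 overlapped those of ANXA5 in resistant cells and those of ANXA1 in sensitive cells.

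ANXA1 made up 4.38%, 3.77% and 3.25% of the summed annexin RPKM in the resistant libraries and 41.1%, 34.8% and 48.8% in the sensitive libraries. The sum itself was 94.0, 110 and 134 RPKM in resistant and 212, 195 and 342 RPKM in sensitive libraries. ANXA7 held between 31.4% and 35.8% of it in the resistant and between 15.7% and 19.5% in the sensitive libraries. With the longest transcript the ANXA1 share lay between 3.35% and 4.58% in resistant and between 33.4% and 44.6% in sensitive libraries. The ANXA7 share then lay between 18.6% and 20.8% in resistant and between 8.13% and 10.6% in sensitive libraries.

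**Figure D3:**
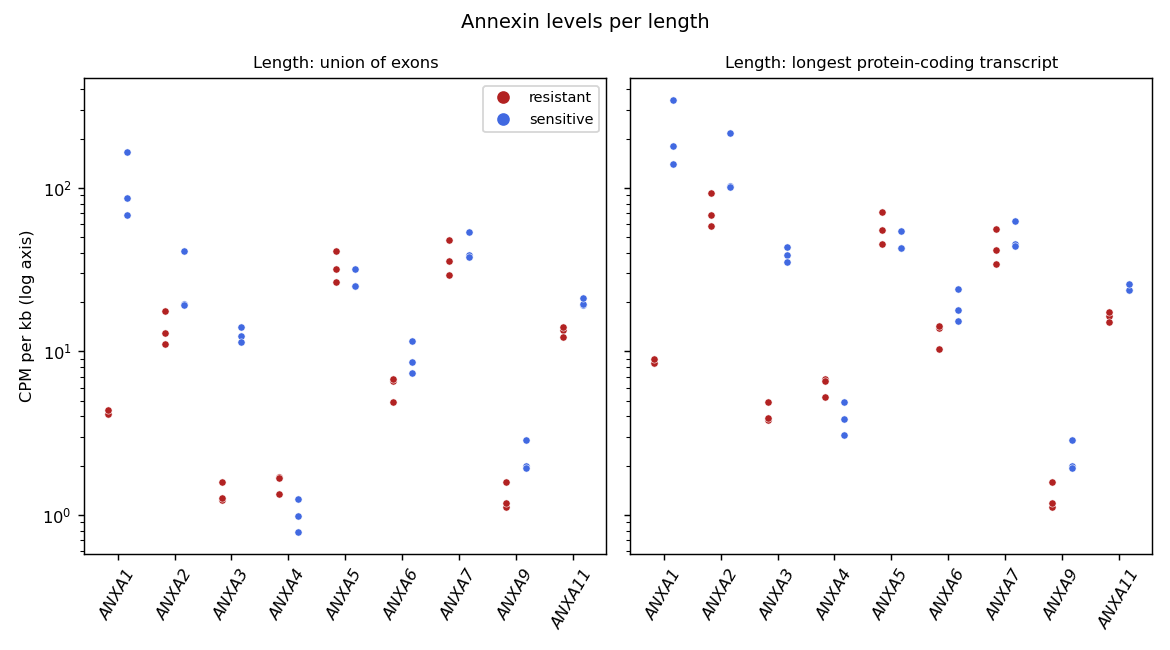
Level per length (CPM per kb, which is RPKM; log axis) of the tested annexins, 1 point per library, resistant to the left of sensitive for each gene. The left panel divides by the union of exons and the right panel by the longest protein-coding transcript. Over the union of exons ANXA1 is sixth in resistant cells at a mean of 4.20 RPKM and first in sensitive cells at 107 RPKM.

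Genes that annexins work with changed in both directions. Of 19 listed partners, receptors and members of the plasminogen system, 16 were tested, 3 rose, 5 fell and 8 did not pass, with a median log2 fold change of -0.84. Of all tested genes 9.83% rose and 13.1% fell. S100A6, a small calcium-binding protein that pairs with several annexins, was at 124, 162 and 170 CPM in resistant and 0.0244, 0.120 and 0.161 CPM in sensitive libraries. It was close to absent from the sensitive libraries, with 1, 4 and 6 counts, and had a log2 fold change of 10.53 ± 0.36 (SE; edgeR adjusted p 3.71e-07). AHNAK, a very large scaffold that binds ANXA2 and S100A10, was at 922 ± 166 CPM in resistant and 392 ± 53.5 CPM in sensitive cells (SD, n = 3 each; log2 fold change 1.24, edgeR adjusted p 0.00262). S100A4, another annexin-binding member of the S100 family, was at 26.7 ± 6.91 CPM in resistant and 7.82 ± 7.34 CPM in sensitive cells (log2 fold change 1.77, edgeR adjusted p 0.0439 for n = 3 each). S100A4 no longer passed when any library except sensitive replicate 3 or resistant replicate 1 was left out, with an adjusted p of up to 0.151, and its log2 fold change was 2.86 without sensitive replicate 3.

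The partners that fell included the enzyme ANXA1 is known to inhibit. PLA2G4A, the cytosolic phospholipase A2 that releases arachidonic acid, was at 1.77, 3.32 and 3.20 CPM in resistant and 59.4, 56.2 and 93.8 CPM in sensitive libraries. Resistant and sensitive libraries were far apart, with a log2 fold change of -4.65 ± 0.31 (SE), 25.2-fold lower, and an edgeR adjusted p of 7.62e-06. S100A11, the partner that binds the ANXA1 tail, was at 31.2 ± 11.9 CPM in resistant and 90.3 ± 11.9 CPM in sensitive cells (SD, n = 3 each; log2 fold change -1.53, edgeR adjusted p 0.00329).

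In the plasminogen system PLAU, the urokinase protease, was at 4.40 ± 1.04 CPM in resistant and 17.7 ± 3.01 CPM in sensitive cells (SD, n = 3 each; log2 fold change -2.01, edgeR adjusted p 0.000286). Its receptor PLAUR was at 8.67 ± 1.24 CPM in resistant and 20.2 ± 2.68 CPM in sensitive cells (log2 fold change -1.22, edgeR adjusted p 0.00153 for n = 3 each). S100A10, the obligate ANXA2 partner in that system, had 12, 6 and 15 counts in resistant and 28, 11 and 30 counts in sensitive libraries and was not called (edgeR adjusted p 0.213).

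The formyl peptide receptors, through which ANXA1 signals, were scarce in both groups. FPR1 had 0 counts over the resistant and 7 over the sensitive libraries, and FPR2 had 0 over the resistant and 4 over the sensitive libraries. FPR3 was tested and had 9, 13 and 31 counts in resistant and 47, 23 and 78 counts in sensitive libraries (edgeR log2 fold change -1.49 ± 0.58, adjusted p 0.0929).

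**Figure D4:**
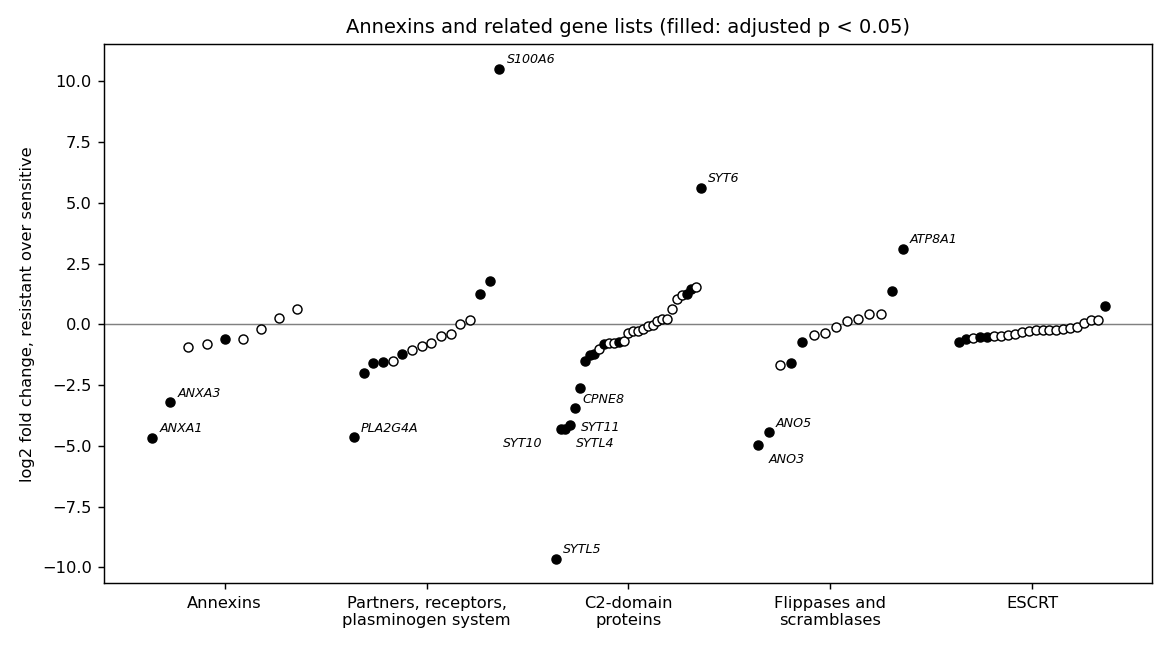
Log2 fold change, resistant over sensitive, of every tested gene in the annexin family and 4 related lists, sorted within each list; filled points passed an edgeR adjusted p below 0.05. S100A6 (10.53) is the highest point, and PLA2G4A (-4.65) lies beside ANXA1 (-4.67). SYTL5, which had 0 counts in the resistant libraries, is drawn at its fitted value, which is no bound.

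C2-domain proteins bind phospholipids under calcium through a fold unrelated to the annexin core. Of 43 listed, 31 were tested, 3 rose, 11 fell and 17 did not pass, with a median log2 fold change of -0.35. The share that rose is near the 9.83% of all tested genes, of which 13.1% fell. SYT10, a synaptotagmin of regulated exocytosis, was at 1.19, 1.11 and 0.813 CPM in resistant and 17.8, 21.9 and 22.4 CPM in sensitive libraries (edgeR log2 fold change -4.31 ± 0.24, adjusted p 2.52e-06). SYTL4, a Rab-binding synaptotagmin-like protein of secretory granules, was at 0.878 ± 0.475 CPM in resistant and 17.6 ± 2.69 CPM in sensitive cells (SD, n = 3 each; edgeR adjusted p 3.81e-05). Its relative SYTL5 had 0 counts in every resistant library and 92, 75 and 132 counts in the sensitive libraries, at least 102-fold lower when set against 3 counts over the resistant group. SYT8, which was not tested, had 10, 6 and 3 counts in the resistant and 0 in every sensitive library. This was at least 6.19-fold higher when set against 3 counts over the sensitive group. SYTL1 was at 8.17 ± 1.65 CPM in resistant and 19.5 ± 1.23 CPM in sensitive cells (log2 fold change -1.26, edgeR adjusted p 0.00140 for n = 3 each).

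The copines, calcium-dependent membrane binders with paired C2 domains, moved both ways. CPNE8 was at 4.76, 5.28 and 2.86 CPM in resistant and 41.6, 40.9 and 59.1 CPM in sensitive libraries (edgeR log2 fold change -3.46 ± 0.27, adjusted p 1.77e-05). CPNE7 was at 60.1, 38.4 and 43.4 CPM in resistant and 16.4, 22.7 and 12.1 CPM in sensitive libraries (edgeR log2 fold change 1.47 ± 0.25, adjusted p 0.00265). CPNE1 also rose, at 34.1 ± 1.42 CPM in resistant and 14.4 ± 6.94 CPM in sensitive cells (SD, n = 3 each; edgeR adjusted p 0.0151), and this call ended when sensitive replicate 1 or resistant replicate 2 was left out (adjusted p up to 0.0668). The last gene of the list that rose, SYT6, had 48, 60 and 10 counts in resistant and 2, 0 and 0 counts in sensitive libraries, a ratio of 57.7 with an interval of 15.6 to 482 for counting error only. All sensitive SYT6 counts came from sensitive replicate 1, without which the fitted log2 fold change was 8.25 in place of 5.62. Among membrane repair proteins of this list, DYSF, the ferlin that patches muscle membrane, was at 4.27 ± 0.664 CPM in resistant and 9.94 ± 1.08 CPM in sensitive cells (log2 fold change -1.22, edgeR adjusted p 0.00314 for n = 3 each).

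Flippases and scramblases set how much phosphatidylserine, the lipid annexins bind, faces outward. Of 22 listed, 14 were tested, 2 rose, 4 fell and 8 did not pass, with a median log2 fold change of -0.23. Among all tested genes 9.83% rose and 13.1% fell. ANO5, an anoctamin with a role in muscle membrane repair, was at 0.997, 0.930 and 0.865 CPM in resistant and 20.8, 20.8 and 19.4 CPM in sensitive libraries (edgeR log2 fold change -4.45 ± 0.21, adjusted p 1.30e-06). ANO3 had 2, 7 and 2 counts in resistant and 130, 146 and 69 counts in sensitive libraries (edgeR log2 fold change -4.98 ± 0.58, adjusted p 0.000257, and -5.77 without resistant replicate 2). XK, a membrane protein of red cells that pairs with VPS13A in scrambling, was at 35.5 ± 8.60 CPM in resistant and 108 ± 8.08 CPM in sensitive cells (SD, n = 3 each; edgeR adjusted p 0.000289). PLSCR1 was at 29.8 ± 4.12 CPM in resistant and 49.7 ± 3.20 CPM in sensitive cells (log2 fold change -0.74, edgeR adjusted p 0.00789 for n = 3 each).

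The members of that list that rose were ATP8A1 and ANO7. ATP8A1, a flippase that returns phosphatidylserine to the inner leaflet, was at 1.51 ± 0.155 CPM in resistant and 0.172 ± 0.132 CPM in sensitive cells (SD, n = 3 each; log2 fold change 3.12, edgeR adjusted p 0.00306). Without sensitive replicate 3 its log2 fold change was 3.94. ANO7 was at 4.29 ± 1.91 CPM in resistant and 1.67 ± 0.355 CPM in sensitive cells (log2 fold change 1.37, edgeR adjusted p 0.0284 for n = 3 each). Leaving out any library except resistant replicate 3 ended the ANO7 call, with an adjusted p of up to 0.107.

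The ESCRT proteins, which pinch off wounded membrane after annexins have gathered there, had small fold changes. All 22 listed were tested, 1 rose, 4 fell and 17 did not pass, a share called near that of all genes, with a median log2 fold change of -0.27. PDCD6IP, the adaptor ALIX, was at 209 ± 12.4 CPM in resistant and 317 ± 18.7 CPM in sensitive cells (SD, n = 3 each; log2 fold change -0.60, edgeR adjusted p 0.0209). CHMP5, CHMP2A and VPS28 also fell, with log2 fold changes of -0.71, -0.52 and -0.51, and VPS37B rose by 0.78. With any library numbered 1 or 2 left out, in either group, the number lower was 0. It was 2 without sensitive replicate 3 and 8 without resistant replicate 3. The VPS37B call ended without sensitive replicate 1, without sensitive replicate 2 and without resistant replicate 2 (adjusted p up to 0.0699).

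The genes beside the annexins on the chromosome mostly did not pass. Of the 40 nearest tested protein-coding genes, 2 on each side of each member, 1 rose and 2 fell, against 23.0% called among all genes. Some lay far off, up to 2038964 bases for PDE5A from ANXA5. ALDH1A1, a retinal-oxidising enzyme 71315 bases from ANXA1, was at 6.67, 10.5 and 10.6 CPM in resistant and 18.5, 21.4 and 38.9 CPM in sensitive libraries (edgeR log2 fold change -1.51, adjusted p 0.00581). Sensitive replicate 3 was the highest library for ALDH1A1, as it was for ANXA1. FBXO32, 139588 bases from the undetected ANXA13, had a log2 fold change of -1.93 (edgeR adjusted p 0.00183). GPX3, 71719 bases from ANXA6 with TNIP1 between them, had one of 1.31 (edgeR adjusted p 0.0488). The GPX3 call ended when any library except sensitive replicate 2 or resistant replicate 3 was left out (adjusted p up to 0.179). The neighbours of ANXA3 were not called, with log2 fold changes of 1.43 for FRAS1, 0.24 for MRPL1, -0.16 for BMP2K and -0.21 for PAQR3. Those of ANXA4 lay between -0.54 and 0.39 and were not called either.

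**Figure D5:**
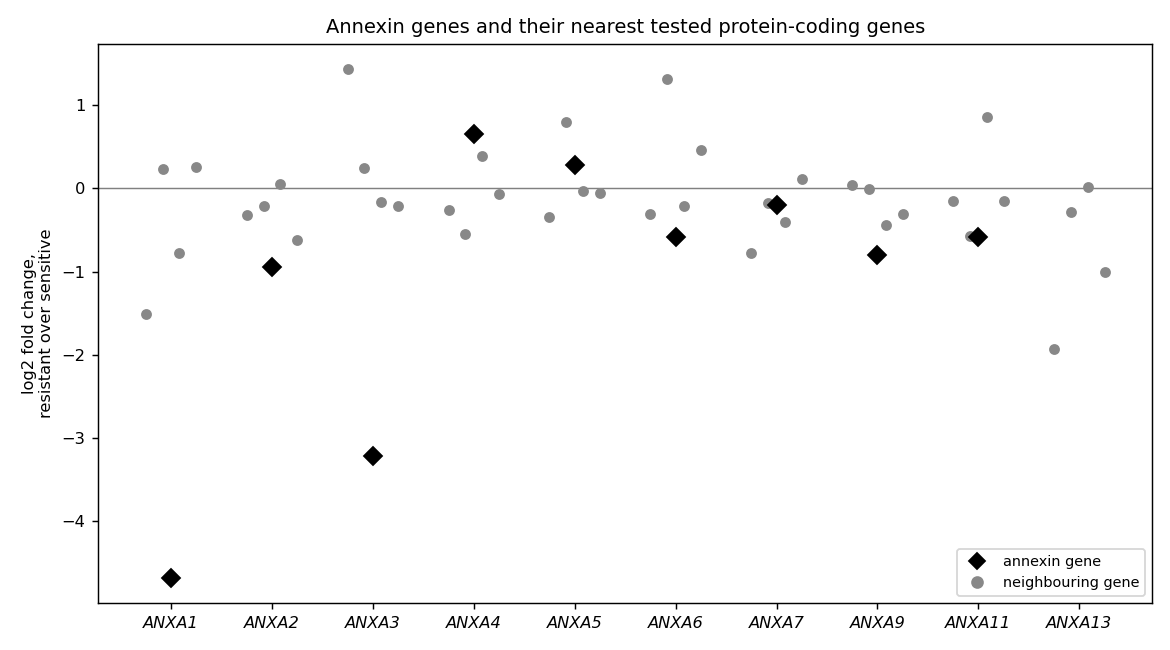
Log2 fold change, resistant over sensitive, of each tested annexin (diamonds) and of the 2 nearest tested protein-coding genes on each side (circles); ANXA13 had no counts and has no diamond. ANXA1 (-4.67) and ANXA3 (-3.21) lie far below their neighbours, of which ALDH1A1 beside ANXA1 (-1.51) passed the test.

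Genes whose pattern over the 6 libraries was most like that of ANXA3, by Euclidean distance of centred log2 CPM, were PYDC2-AS1 (distance 0.348), PAPSS1 (0.362), LNX1 (0.369), MAOA (0.403) and LINC03049 (0.416). PAPSS1, which makes the sulfate donor of the cell, was at 16.2 ± 3.23 CPM in resistant and 128 ± 5.62 CPM in sensitive cells (SD, n = 3 each). For ANXA1 the nearest genes were PTGS2 (0.493), ENSG00000288882 (0.609), TOX-DT (0.665), ARID5B (0.770) and LINC02241 (0.771). PTGS2, the inducible cyclooxygenase that acts on the arachidonic acid released by PLA2G4A, had 0 counts in the resistant libraries and 1.49 ± 0.473 CPM in the sensitive libraries (SD, n = 3), at least 56.9-fold lower. ENSG00000288882 and TOX-DT also had 0 counts in the resistant libraries and were at least 49.4-fold and 33.4-fold lower. The distances of these 3 genes rest on the prior count of 2 that stands in for their 0 counts, so they do not show a fold change like that of ANXA1. ARID5B, a chromatin regulator, was at 0.894 ± 0.0585 CPM in resistant and 18.4 ± 2.75 CPM in sensitive cells (SD, n = 3 each). For ANXA4 they were ENSG00000274642 (0.127), DNAJC9-AS1 (0.203), PAK2 (0.228), MTHFD1 (0.231) and TCF4 (0.233). The likeness is over 6 libraries that fall into 2 separate groups, so genes with a like difference between the groups come out as near.

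The markers listed for myeloblasts, which is what the labels call these cells, summed to between 14.0 and 19.0 CPM in resistant libraries. In sensitive libraries the sum lay between 221 and 252 CPM. KIT, a stem cell factor receptor, and CD33, a myeloid surface lectin, made up between 80.8% and 87.9% of it in resistant and between 97.0% and 98.7% in sensitive libraries. KIT was at 3.45 ± 1.76 CPM in resistant and 121 ± 13.4 CPM in sensitive cells (SD, n = 3 each; edgeR adjusted p 1.53e-05). CD33 was at 10.6 ± 1.26 CPM in resistant and 105 ± 6.34 CPM in sensitive cells (SD, n = 3 each; edgeR adjusted p 1.45e-06). Of the 4 tested on that list, 3 fell and 0 rose, against 13.1% lower and 9.83% higher among all tested genes. Besides KIT and CD33, the remaining call was lost in some of the fits that dropped a single library. The list of other cell types summed to between 417 and 574 CPM in resistant and between 528 and 741 CPM in sensitive libraries, with 2 of 11 tested higher, 3 lower and MS4A1 at 0 in all. Their part in the annexin differences was not tested.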

How the data were processed

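Processed counts of 6 RNA-seq libraries were used. The authors deposited raw whole-number counts for Ensembl gene IDs, made per the submitters' processing notes with Trimmomatic 0.39, HISAT2 2.2.1 and featureCounts of Subread 2.0.3 on GRCh38. The sources used here do not state the annotation release, the strand setting or the unit counted (reads or fragments). Gene positions and exon lengths are from GENCODE 29, and promoters from RefSeq.

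Here, genes kept by filterByExpr were scaled with TMM factors and tested, two-sided, with edgeR 4.0.16 in R 4.3.3 (robust quasi-likelihood, Benjamini-Hochberg over 20891 genes). The SE is the fold change divided by the root of F. CPM and RPKM use TMM-scaled totals, and profile distances a prior count of 2. Totals were 33007642 to 43006918 counts, and 3 counts serve as the floor. Intervals and floors cover counting error only. No 2 libraries of a group agreed within sampling noise.

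The members and lists were chosen with earlier results of these data known. Named genes are the members, the other annexins, up to 6 genes per list with the smallest adjusted p, neighbours, and nearest profiles of ANXA1, ANXA3 and ANXA4. Some but not all of the listed genes at 0 in 1 group are named too. S100A4, S100A10, FPR3, CPNE1, SYT6, DYSF, GATA1, HBE1, MPO, ELANE, CD34 and AZU1 fall outside this rule and were picked after their values were seen. The values of 1 listed gene are not reported here. Alternatives used DESeq2 1.42.0, limma 3.58.1, other scalings, filters, thresholds, a replicate block and left-out libraries. Only the main edgeR fit was tried on simulated counts, and the other steps were not.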

Additional observations from a re-analysis of the deposited data

How the results depend on the processing

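Over 19 alternatives no tested annexin changed the direction of its fold change. ANXA1 (log2 fold change -4.94 to -4.21) and ANXA3 (-3.41 to -3.05) were called in all 19, ANXA11 in 13, and ANXA5 and ANXA7 in 0. ANXA11 was not called with library totals alone (-0.41), at an adjusted p below 0.01 or with glmTreat against 1.5-fold (-0.58 both times). The members called higher became 1, ANXA4 each time, with upper quartile factors (0.74), library totals (0.84), no filter (0.63), at least 50 counts (0.70), the replicate block (0.67), without both libraries numbered 3 (0.93), and with DESeq2 (0.66), limma-voom (0.67) and length and GC offsets (0.74). The members called lower became 5 with no filter (ANXA2 -0.96, ANXA6 -0.60), with the replicate block (-0.87, -0.57), without both libraries numbered 3 (-0.70, -0.48) and with DESeq2 (ANXA2 -0.93, ANXA9 -0.80). The cause was not tested.

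Leaving out single libraries gave 0 to 1 annexins higher and 2 to 5 lower, and log2 fold changes of -1.18 to -0.48 for ANXA2, 0.48 to 0.83 for ANXA4, -0.74 to -0.38 for ANXA6, -0.98 to -0.61 for ANXA9 and -0.63 to -0.55 for ANXA11. It gave 2 to 3 partners higher and 5 to 8 lower, 2 to 5 C2-domain genes higher and 8 to 11 lower, 1 to 2 flippases or scramblases higher and 4 lower, 0 to 1 ESCRT genes higher and 0 to 8 lower, and 1051 to 3327 of all genes higher and 1677 to 3718 lower. Without resistant replicate 3 the number of all genes called was at its highest.

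Without both libraries numbered 3, calls were 4645 higher and 5021 lower over all genes, 8 lower partners, 6 higher C2-domain genes, and 2 higher and 8 lower ESCRT genes. No filter gave 7 higher C2-domain genes. An adjusted p below 0.01 gave 938 higher and 1586 lower over all genes, 7 lower C2-domain genes, 1 higher flippase or scramblase and 0 ESCRT genes either way. glmTreat gave 840 higher and 1429 lower, 1 higher flippase or scramblase and 0 ESCRT genes either way, and limma-voom 1 higher flippase or scramblase. Library totals alone gave 1 lower ESCRT gene and 3041 higher against 2118 lower genes in all, where TMM scaling gave 2054 and 2741. Under them the median over all genes was 0.20 (log2), against 0.03 with TMM. With the longest transcript, 2 resistant and 7 sensitive members changed place in the order of levels.

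Deviations of same-numbered libraries correlated at 0.20, 0.085 and 0.30, and those of differently numbered libraries at -0.31 to 0.23. Resistant replicate 1 correlated best with sensitive replicate 2 (0.23), so the replicate numbers are not shown to pair the libraries. A replicate block gave 1 higher and 5 lower annexins, 8 lower ESCRT genes, and 2859 higher and 3582 lower genes in all. Depth limits statements on genes with few or 0 counts, such as FPR1, FPR2, ANXA13 and the other annexin genes at 0, where differences under about 3 counts were not detectable.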
